A study of Drosophila melanogaster with 8 samples.

Results

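The genes described here are the Rab, Vps, Vha and Atg genes of Drosophila melanogaster, which together build, acidify and move the compartments of the endosomal and lysosomal system. They were chosen by name: every probe set paired with 1 gene whose symbol starts with Rab, Vps, Vha or Atg was taken, and where a gene had several, the brightest on average across the 8 arrays stood for it. This gave 101 genes of 10844 on the array, 26 Rab, 26 Vps, 29 Vha and 20 Atg genes. The rule for the genes uses their names, and no difference between the lines enters it. Expression was measured on Affymetrix DrosGenome1 arrays in 3 cell lines. RasV12 is a line derived from fly embryos by expression of an oncogenic Ras, profiled at passage 12 on 3 arrays, and CL8 and L2 are lines profiled on 4 arrays and 1 array. Cultures of all lines were taken at 70% confluence, 1 T-flask for each array. The promoter that drove Ras, and the passage of CL8 and L2, are not given in the sources used here. Each group is a single line, so p-values cover only flask-to-flask variation within a line, and an effect of oncogenic Ras and any other way in which the lines differ cannot be told apart.

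Rab proteins are small GTPases that mark membranes and recruit the tethers and motors that move vesicles between them. The Vps genes, named after yeast mutants with missorted vacuolar proteins, encode the coats, tethers and sorting complexes of endosomes, among them ESCRT, which buds cargo into multivesicular bodies, retromer, which returns receptors from endosomes, and HOPS and CORVET, which tether late and early endosomes before they fuse. The Vha genes encode the vacuolar H+-ATPase (V-ATPase), a proton pump with a soluble V1 part that hydrolyses ATP and a membrane part, Vo, that carries protons into the lumen. The Atg genes encode the autophagy machinery that encloses cytoplasm in a double membrane for delivery to lysosomes. Several V-ATPase subunits have extra gene copies in flies, many of them known for expression in restricted tissues such as the testis.

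Values are log2 expression values as the authors deposited them, and a difference is a difference of mean log2 values, so 1 is a 2-fold change. A gene was called where limma's adjusted p was below 0.05 over all 13966 probe sets tested. The arrays did not share one distribution of values, so each fit was repeated after quantile normalization, which gives every array the same distribution and is called rescaled below. The words higher, lower, rose and fell are used of a gene called with the same sign in both scalings, unless the scaling is named. A line was taken as within the background controls where most of its arrays did not exceed the highest of 23 negative control probe sets, which lay between 2.98 and 3.47 on the RasV12 and CL8 arrays and at 4.04 on the L2 array. Of the 101 genes, 81 were above these controls in at least 1 line and 20 were within them in all 3 lines, 12 Vha, 6 Rab and 2 Atg genes. All 26 Vps genes were above them in at least 1 line.

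Between RasV12 and CL8, most of the genes that changed in both scalings were lower in RasV12. The share that fell was near that of all probe sets, and the share that rose was below it. In both scalings 31 members were lower in RasV12 and 5 were higher, where 25.6% of all probe sets tested were lower and 11.3% were higher. Among the 80 members above the controls in RasV12 or CL8, 29 (36.2%) were lower and 3 (3.75%) were higher, beside 33.5% and 13.6% of all probe sets above the controls there. As deposited, 57 members were called lower and 6 higher, beside 38.6% and 11.3% of all probe sets, and after rescaling 33 were called lower and 34 higher, beside 29.8% and 35.5%. The split of the calls therefore moved with the scaling, and the counts below are those in both scalings unless stated. Over all members the median difference was -0.54 as deposited and -0.02 after rescaling, beside -0.08 and 0.05 over all probe sets tested. Over the members above the controls it was -0.75 and -0.08, beside -0.49 and -0.02 over all such probe sets. When each array was instead centred on its 75th percentile, as another scaling, 24 genes were lower and 5 higher in all 3 scalings, beside 17.7% and 11.3% of all probe sets.

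**Figure D1:**
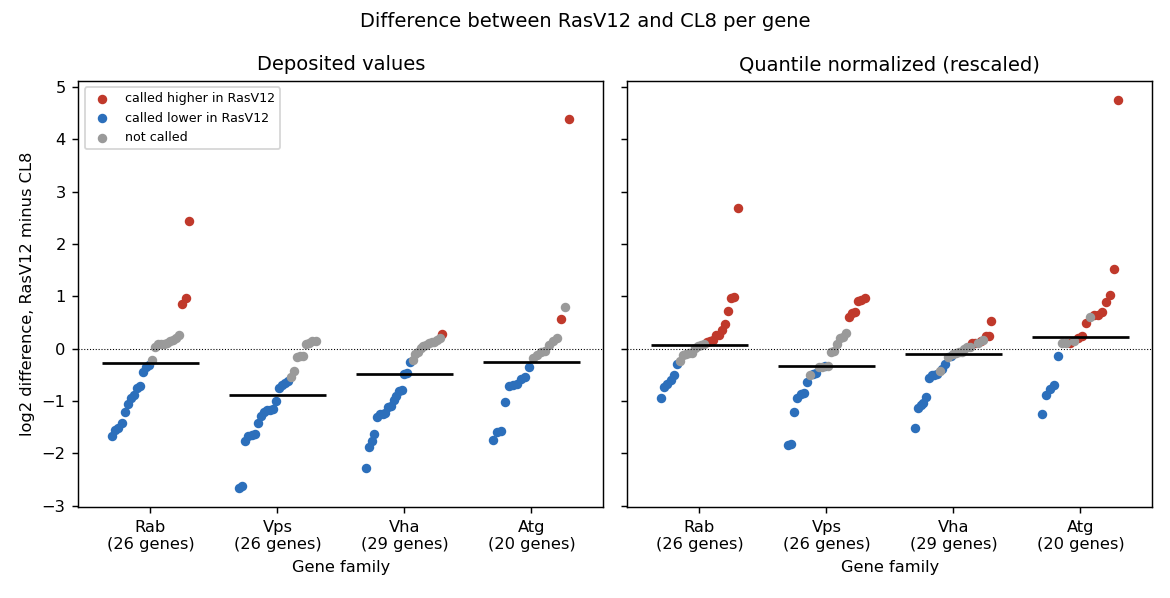
Log2 difference of each gene between RasV12 and CL8, on the vertical axis, with 1 point per gene and 1 column per family, as deposited (left) and after quantile normalization (right). Colours mark genes called higher, called lower or not called in that scaling, and horizontal bars are family medians. The medians of the Rab, Vps, Vha and Atg genes were -0.27, -0.88, -0.49 and -0.26 as deposited and 0.06, -0.33, -0.09 and 0.22 after rescaling, and Atg5, at 4.38 and 4.74, lies above all other genes.

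The V-ATPase was measured with 29 genes, of which 15 were above the controls in all 3 lines, and 14 of these 15 were called lower in RasV12 than in CL8 as deposited, beside 54.8% of all probe sets above the controls in all 3 lines. Of the 15, 8 were lower in both scalings, beside 33.2% of those probe sets, which were not matched to the 15 in level. The median of the 15 was -1.22 as deposited and -0.43 after rescaling. The steepest fall was in VhaM9.7-b, which encodes the small Vo subunit e. It read 9.81, 9.89 and 10.19 on the RasV12 arrays, 12.24, 12.46, 12.13 and 12.17 on the CL8 arrays and 11.40 on the L2 array. As deposited, all RasV12 arrays lay below L2, and L2 lay below all CL8 arrays, but L2 and CL8 did not differ in both scalings. The mean was 9.96 ± 0.20 (SD, n = 3) in RasV12 and 12.25 ± 0.15 (SD, n = 4) in CL8, a 4.88-fold lower level (difference -2.29, SE 0.12, limma adjusted p = 2.3e-06) that was -1.51 after rescaling.

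Subunit a, the large Vo subunit that channels protons and whose isoforms direct the pump to different membranes, fell in both of its measured main copies. Vha100-2 read 9.04, 9.03 and 8.99 in RasV12, 11.09, 10.82, 10.93 and 10.79 in CL8 and 9.95 in L2, and its difference between RasV12 and CL8 was -1.89 (SE 0.093, limma adjusted p = 1.5e-06, rescaled -1.07). As deposited, the RasV12 arrays again stood below L2 and L2 below CL8. Vha100-1 read 11.27, 11.22 and 11.35 in RasV12, 12.53, 12.40, 12.31 and 12.31 in CL8 and 11.14 in L2. Here RasV12 and L2 were close, and the difference from CL8 was -1.11 for RasV12 (SE 0.086, limma adjusted p = 1.4e-05, rescaled -0.39) and -1.25 for L2 (limma adjusted p = 0.000206, rescaled -0.66).

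Other subunits that fell belong to both parts of the pump. Vha13, subunit G of the V1 peripheral stalk, had a mean of 11.03 ± 0.19 in RasV12 and 12.79 ± 0.10 in CL8, which differ by -1.76 (SE 0.11, limma adjusted p = 4.66e-06, rescaled -1.03), and it read 11.79 in L2. VhaAC45, an accessory subunit of the Vo part, was 11.24 ± 0.015 in RasV12 and 12.87 ± 0.38 in CL8, with a difference of -1.63 (SE 0.19, limma adjusted p = 0.000163, rescaled -0.93). Its CL8 arrays fell into 2 pairs, with 13.22 and 13.16 on arrays 1 and 2 and 12.47 and 12.61 on arrays 3 and 4, and all lay above the RasV12 range of 11.23 to 11.26. VhaAC39-1, subunit d, which couples the stalk to the ring, differed by -1.30 (limma adjusted p = 1.92e-05, rescaled -0.56), Vha14-1, the V1 subunit F, by -1.25 (limma adjusted p = 1.54e-05, rescaled -0.51), and VhaPPA1-1, the ring subunit c'', by -1.22 (limma adjusted p = 4.55e-05, rescaled -0.49). A second probe set of VhaPPA1-1 gave -0.25 and 0.28 after rescaling, so the fall of that gene rests on 1 of its 2 probe sets.

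Other subunits of the catalytic part and the ring were called lower as deposited and not after rescaling. Vha55, the V1 subunit B, differed by -0.81 (rescaled -0.072), Vha26, the stalk subunit E, by -0.49 (rescaled 0.17), and Vha16-1, the main ring subunit c, by -0.78 (rescaled -0.055). Vha36-1, the rotor subunit D, differed by -0.90 (rescaled -0.081) and Vha44, subunit C, by -1.25 (rescaled -0.43). Their direction on a shared scale is not settled by these arrays.

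**Figure D2:**
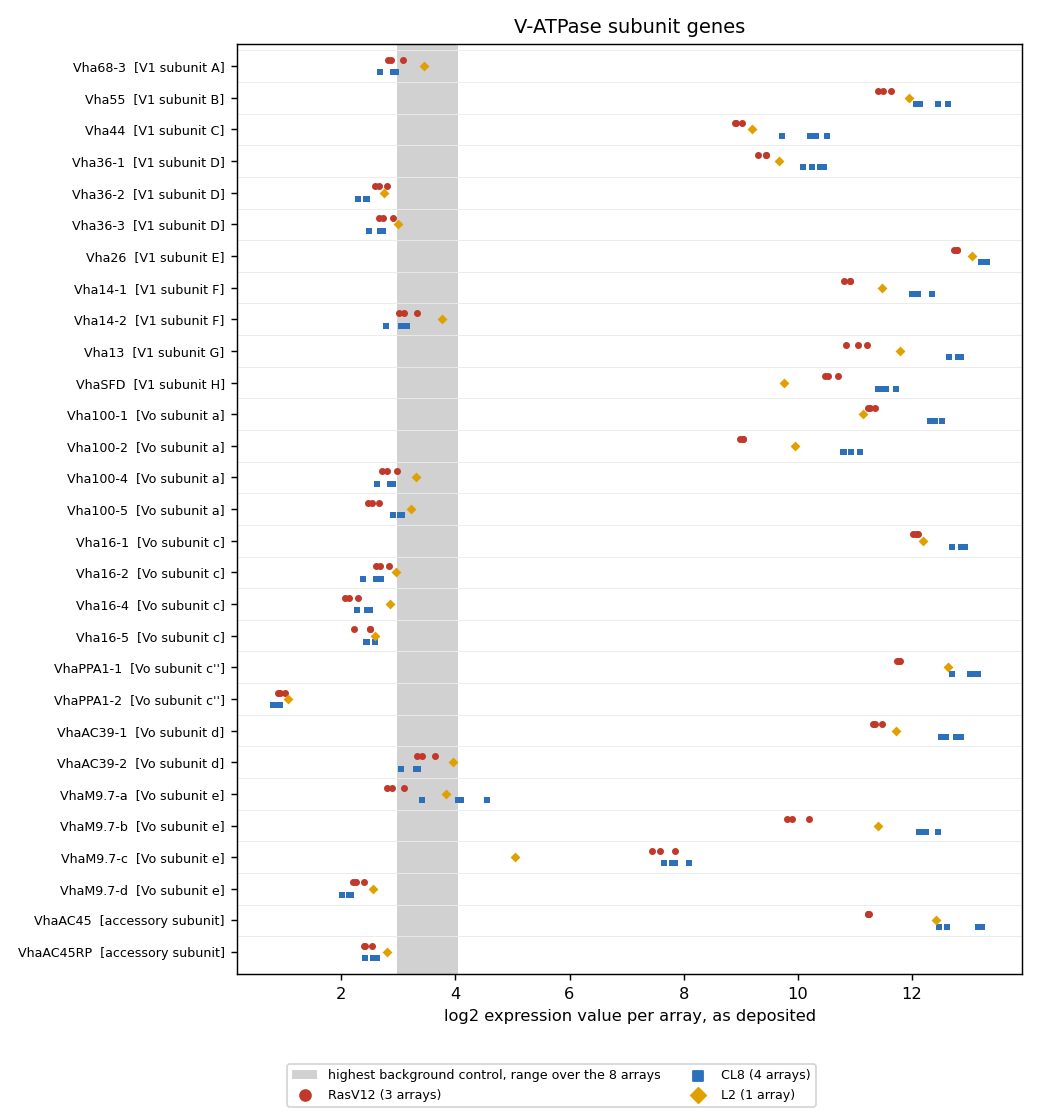
Log2 expression value, as deposited, of each V-ATPase gene on every array, ordered by subunit, with the grey band showing the range of the highest background control over the 8 arrays. The main copies of each subunit stand far right of the band with RasV12 left of CL8, VhaM9.7-c is the exception with only L2 low, and the other paralogs lie in, at the edge of or left of the band, except for some CL8 points of VhaM9.7-a.

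Most extra copies of V-ATPase subunits were not measurable above background in any of the 3 lines. Genes from 7 subunits with 2 or more measured copies numbered 21, and 10 of them were within the controls in all lines: Vha36-2 and Vha36-3 (subunit D), Vha14-2 (F), Vha100-4 and Vha100-5 (a), Vha16-2, Vha16-4 and Vha16-5 (c), VhaPPA1-2 (c'') and VhaM9.7-d (e). None of their values on any array exceeded 3.77. Calls that limma made among these, higher for Vha36-2 (0.27) and lower for Vha100-5 (-0.46) and Vha16-4 (-0.26), are between lines that were both within the controls, so no fold is given. Subunits c, c'', D and F were thus each represented above background by 1 gene, Vha16-1, VhaPPA1-1, Vha36-1 and Vha14-1, in all 3 lines. Vha68-3, a copy of the V1 catalytic subunit A, and VhaAC45RP, related to the accessory subunit, were within the controls as well. The other genes of subunit A were not analysed here.

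The 4 measured genes of subunit e differed in pattern between the lines. VhaM9.7-c read 7.59, 7.44 and 7.84 in RasV12, 7.85, 8.09, 7.66 and 7.80 in CL8 and 5.04 in L2. The RasV12 and CL8 arrays overlapped and L2 lay far below both, so the gene separated L2 from the other lines, where VhaM9.7-b separated RasV12. L2 was 7.01-fold lower than CL8 (difference -2.81, SE 0.20, limma adjusted p = 3.93e-05, rescaled -3.07), and RasV12 was higher than L2 by 2.58 (limma adjusted p = 5.94e-05, rescaled 3.61). Between RasV12 and CL8 the gene gave -0.23 as deposited (limma adjusted p = 0.206) and 0.53 after rescaling (limma adjusted p = 0.0194), so its direction there turned with the scaling. VhaM9.7-a was above the controls in CL8 alone, at 4.05, 4.56, 3.41 and 4.09. It read 3.10, 2.80 and 2.88 in RasV12, which makes it at least 1.61-fold lower there than in CL8 (limma adjusted p = 0.00518). The L2 array read 3.83, inside the CL8 range, and counts as within the controls because its highest control was 4.04. L2 minus CL8 was -0.19 as deposited and -0.73 after rescaling, so the gene did not set CL8 apart from L2.

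The balance within a subunit can be read within each array, where a shift shared by all genes cancels, though a change in the shape of the distribution does not. Of 24 possible pairs of copies, 3 had both genes above the controls in RasV12 and CL8. Log2 VhaM9.7-b minus log2 VhaM9.7-c was 2.34 ± 0.12 (SD, n = 3) in RasV12, 4.40 ± 0.047 (SD, n = 4) in CL8 and 6.36 in L2, so that it was lower in RasV12 than in CL8 (difference -2.06, rescaled -2.04). For subunit a, log2 Vha100-1 minus log2 Vha100-2 was 2.26 ± 0.091 in RasV12, 1.48 ± 0.089 in CL8 and 1.19 in L2, higher in RasV12 by 0.78 (rescaled 0.68). For subunit d, log2 VhaAC39-1 minus log2 VhaAC39-2 was 7.92 ± 0.24 in the RasV12 arrays against 9.43 ± 0.25 for CL8. The difference was -1.51 as deposited and -0.79 after rescaling. No value is given for L2, where VhaAC39-2 was within the controls. VhaAC39-2 itself was just above the controls, at 3.64, 3.41 and 3.33 in RasV12 and 3.05, 3.30, 3.31 and 3.35 in CL8, with 3 of the 4 CL8 arrays above them, so this contrast mostly carries VhaAC39-1. RasV12 and CL8 arrays did not overlap in any of the 3 contrasts. The two-sided exact permutation test gave p = 0.0571 for each (0.0571 after adjustment over the 3), the smallest that 3 arrays against 4 allow, so the design cannot reach 0.05 here. Probes of different genes differ in affinity, so only the change of these contrasts between lines can be read, not which copy is more abundant.

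In L2, 5 of the 29 V-ATPase genes were lower than in CL8 in both scalings, beside 11.7% of all probe sets. VhaSFD, the V1 subunit H that regulates the pump, read 10.70, 10.48 and 10.53 in RasV12, 11.72, 11.40, 11.55 and 11.50 in CL8 and 9.75 in L2, and L2 was lower than CL8 by 3.46-fold (difference -1.79, SE 0.15, limma adjusted p = 8.44e-05, rescaled -1.13). Its second probe set gave -0.31 for L2 against CL8 and 0.38 after rescaling, so this fall rests on 1 of its 2 probe sets. Vha100-1, Vha13 and VhaAC39-1 were also lower in L2 than in CL8, with differences of -1.25, -1.01 and -0.96, and were lower in RasV12 than in CL8 as given above. Both comparisons share the CL8 arrays.

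Of the 26 Rab genes, 6 fell and 3 rose in RasV12 against CL8 in both scalings, near the 25.6% and 11.3% of all probe sets. Rab23, a Rab with roles in planar polarity in the fly, rose most. It read 6.28, 6.34 and 6.13 in RasV12, 3.27, 3.96, 4.02 and 4.03 in CL8 and 4.45 in L2. Every RasV12 array stood above L2 and CL8, while L2, at 0.63 above CL8 as deposited, was level with it after rescaling (-0.01). RasV12 was 5.39-fold higher than CL8 (difference 2.43, SE 0.19, limma adjusted p = 1.59e-05, rescaled 2.69) and 3.48-fold higher than L2 (1.80, limma adjusted p = 0.00187, rescaled 2.70). In the RefSeq gene order Rab23 lies next to Atg17, which encodes a scaffold of the autophagy initiation complex. Atg17 read 3.16, 3.48 and 3.95 in RasV12, with 2 of 3 arrays above the controls, and was within the controls in CL8 (2.89, 3.00, 2.96 and 2.99) and L2 (3.31).

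Rab3, the Rab of synaptic vesicle release, was also higher in RasV12, with 5.49, 5.29 and 5.09 against 4.19, 4.49, 4.52 and 4.56 in CL8 and 5.06 in L2. Its difference from CL8 was 0.85 (SE 0.13, limma adjusted p = 0.000664, rescaled 0.99). RabX6, called higher as well (0.96), was within the controls in every line and is not read further.

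Among Rab genes that fell, the 3 with the largest differences were Rabex-5, Rab14 and Rab19. Rabex-5, an exchange factor that activates Rab5 on early endosomes, had a mean of 6.57 ± 0.23 (SD, n = 3) in RasV12 and 8.24 ± 0.26 (SD, n = 4) in CL8, and read 8.29 in L2. L2 lay within the CL8 range and RasV12 was 3.19-fold below CL8 (difference -1.68, SE 0.17, limma adjusted p = 5.41e-05, rescaled -0.95). Rab14, which acts between endosomes, phagosomes and the Golgi, read 9.71, 9.69 and 9.69 in RasV12 and 11.06, 11.06, 11.32 and 11.55 in CL8 (difference -1.55, SE 0.13, limma adjusted p = 2.09e-05, rescaled -0.73). L2, at 9.48, was close to RasV12 and lower than CL8 (difference -1.77, rescaled -1.10). Rab19 gave 8.19, 7.85 and 7.83 in RasV12 and 9.41, 9.50, 9.39 and 9.58 in CL8 (difference -1.51, SE 0.11, limma adjusted p = 1.03e-05, rescaled -0.68), with L2 at 9.15. L2 and CL8 differed by -0.32 as deposited and by 0.37 after rescaling, and were not called apart in both.

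Rab10, which directs basement membrane secretion in fly epithelia, was lower in RasV12 (difference -1.42, SE 0.12, limma adjusted p = 2.04e-05, rescaled -0.60) on the probe set used. Its second probe set gave -0.14 and 0.68 after rescaling, so the fall of Rab10 rests on 1 of 2 probe sets. RabX1 (difference -1.20, limma adjusted p = 0.000461, rescaled -0.50) and Rab40, a Rab with a SOCS box, were lower as well (-0.71, limma adjusted p = 6.99e-05, rescaled -0.29). By role, 3 of 10 Golgi and secretory Rabs, 1 of 3 endocytic Rabs, 1 of 7 other Rabs and 1 of 5 regulators fell. These falls in both scalings stand beside 25.6% of all probe sets. Rab32, of lysosome-related organelles, was called in neither scaling between RasV12 and CL8. The endocytic Rabs measured were Rab14, Rab35 and Rab9, the last within the controls. Rab5, Rab7 and Rab11 were not among the 26 genes, so the counts are no survey of endosomal Rabs. Rab2 and Rab35, of the Golgi and of endocytic recycling, differed by -0.75 and -1.06 as deposited and by 0.081 and -0.24 after rescaling.

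The Rab gene that set L2 apart was Rab39. It read 8.49, 8.32 and 8.38 in RasV12, 9.39, 9.38, 9.42 and 9.18 in CL8 and 5.57 in L2. L2 was 13.7-fold lower than CL8 (difference -3.77, SE 0.13, limma adjusted p = 1.43e-06, rescaled -3.84) and 7.1-fold lower than RasV12 (RasV12 minus L2 2.83, limma adjusted p = 5.74e-06, rescaled 3.72). Between RasV12 and CL8, Rab39 gave -0.95 as deposited and -0.11 after rescaling and was not called in both. RabX1 was the next, at 7.79 ± 0.33 in CL8, 6.59 ± 0.054 in RasV12 and 5.47 in L2, with L2 lower than CL8 (difference -2.32, limma adjusted p = 0.000283, rescaled -2.46). Rab18, of lipid droplets and the endoplasmic reticulum, was lower in L2 than in CL8 (difference -1.67, rescaled -1.01) and lower than in RasV12 (RasV12 minus L2 1.22, rescaled 1.36).

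**Figure D3:**
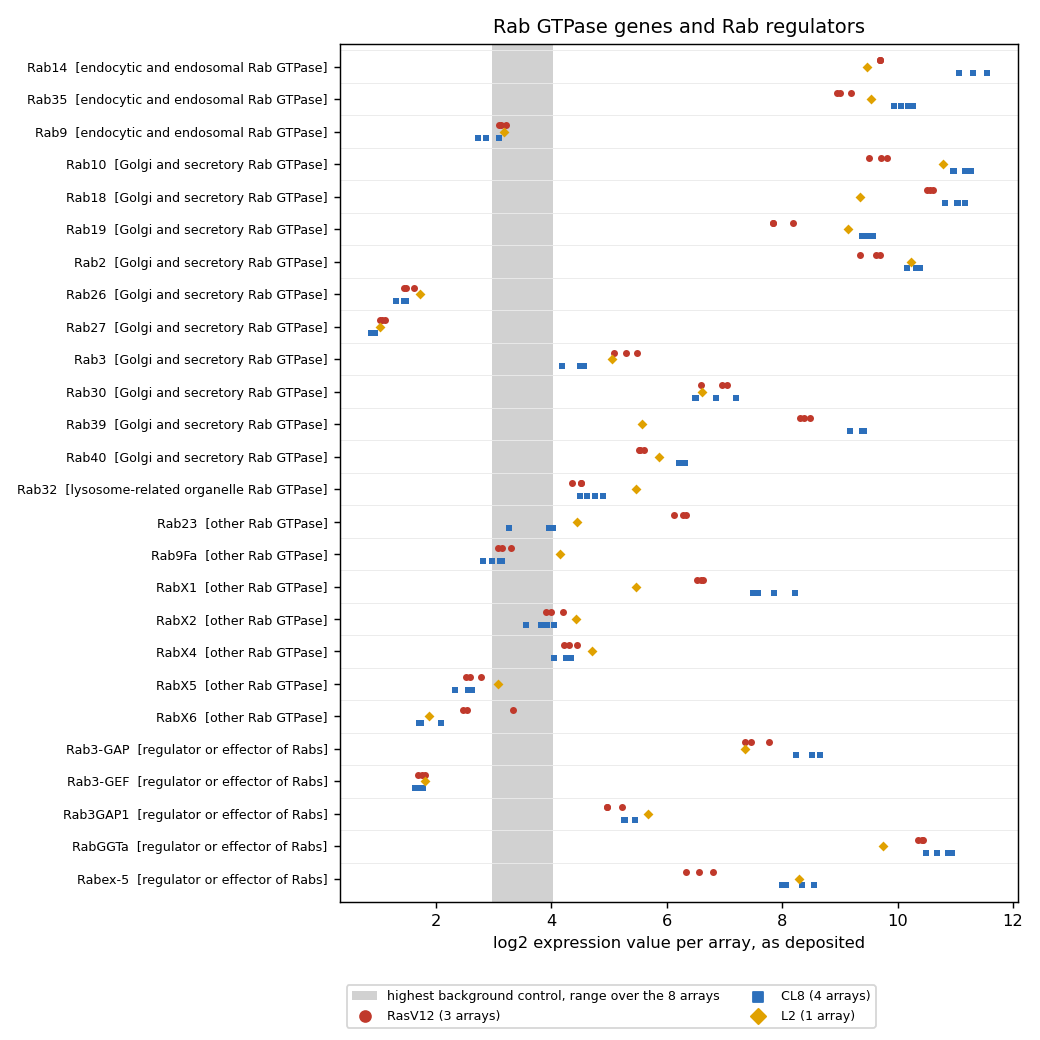
Log2 expression value, as deposited, of each Rab gene and Rab regulator on every array, with the grey band showing the range of the highest background control. Rab23 has all RasV12 points at 6.13 to 6.34, right of CL8 and L2, and Rab39 has the L2 point at 5.57, left of both other lines.

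In the Vps family no gene rose in RasV12 in both scalings and 10 of 26 fell, spread over every complex. All 26 were above the controls in RasV12 or CL8, and of all such probe sets 33.5% fell and 13.6% rose. The family median was -0.88 as deposited and -0.33 after rescaling. Vps25, the ESCRT-II subunit whose loss causes overgrowth of fly imaginal discs, fell most. It read 8.29, 8.42 and 8.41 in RasV12, 10.94, 11.12, 11.29 and 10.78 in CL8 and 10.11 in L2. As deposited the 3 lines did not overlap, with RasV12 lowest and CL8 highest, and RasV12 was 6.32-fold below CL8 (difference -2.66, SE 0.13, limma adjusted p = 1.3e-06, rescaled -1.84). Vps8, the CORVET subunit that binds the early endosome, read 7.46, 7.36 and 7.34 in RasV12, 10.03, 10.17, 10.05 and 9.83 in CL8 and 8.57 in L2. It showed the same order of lines, and RasV12 was 6.18-fold below CL8 (difference -2.63, SE 0.096, limma adjusted p = 3.74e-07, rescaled -1.82).

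ESCRT was measured with 9 Vps genes, 3 of which fell in both scalings, beside 33.5% of all probe sets above the controls in RasV12 or CL8. The 3 were Vps25 and the ESCRT-III genes Vps20 and Vps60. Vps20 was 9.39 ± 0.20 in RasV12 and 11.04 ± 0.16 in CL8 (difference -1.65, SE 0.13, limma adjusted p = 1.32e-05, rescaled -0.84). Vps60 read 9.49, 9.20 and 9.03 in RasV12, 11.07, 10.65, 11.10 and 11.16 in CL8 and 11.09 in L2, so L2 lay with CL8, and RasV12 was lower than CL8 (difference -1.75, SE 0.16, limma adjusted p = 3.07e-05, rescaled -0.94). The members of one complex did not move as one. Vps36, the partner of Vps25 in ESCRT-II, gave -0.42 as deposited and 0.30 after rescaling, Vps4, the ATPase that disassembles ESCRT-III, 0.11 and 0.93, and Vps24, another ESCRT-III gene, -0.13 and 0.69.

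All 3 genes of retromer were called lower in RasV12 than in CL8 as deposited, and 2 of the 3 in both scalings. The shares of all probe sets above the controls in all 3 lines were 54.8% and 33.2%. Vps35, the scaffold of retromer, read 9.62, 9.76 and 9.80 in RasV12, 11.49, 11.50, 11.24 and 11.38 in CL8 and 10.68 in L2. Its difference between RasV12 and CL8 was -1.68 (SE 0.094, limma adjusted p = 2.78e-06, rescaled -0.86). Vps29 gave -1.42 (SE 0.082, limma adjusted p = 3.14e-06, rescaled -0.63) and Vps26 -1.17 (limma adjusted p = 6.35e-05), which was -0.33 and not called after rescaling. Against L2, all 3 were lower in RasV12 in both scalings, with differences of -0.95 for Vps35, -0.83 for Vps29 and -1.21 for Vps26 (rescaled -0.77, -0.64 and -1.05). A lower level in RasV12 in both scalings was called for 25.9% of all probe sets in that comparison.

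The Golgi tether GARP, which receives vesicles coming from endosomes, and the related complex EARP were measured together with 4 genes. Vps51 and Vps52 fell in RasV12 against CL8, with differences of -1.29 (rescaled -0.49) and -1.21 (rescaled -0.46). Vps53 behaved differently between lines. It read 7.79, 7.54 and 7.36 in RasV12, 7.97, 8.27, 8.44 and 8.34 in CL8 and 9.80 in L2, above every other array. L2 was 2.92-fold higher than CL8 (difference 1.55, SE 0.21, limma adjusted p = 0.000851, rescaled 2.19), and RasV12 was 4.73-fold lower than L2 (-2.24, limma adjusted p = 0.00017, rescaled -2.10). Vps51 went the other way in L2, at 7.34 against 8.75, 8.63, 8.74 and 8.82 in CL8 (difference -1.40, rescaled -0.82).

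Of the remaining Vps genes, Vps13B, from a family of lipid transfer proteins, was 5.01 ± 0.014 in RasV12, 6.63 ± 0.35 in CL8 and 4.96 in L2. Both RasV12 (difference -1.62, SE 0.18, limma adjusted p = 9.96e-05, rescaled -1.22) and L2 (-1.67, limma adjusted p = 0.0016, rescaled -2.05) were lower than CL8. Vps15, the pseudokinase that regulates the class III phosphatidylinositol 3-kinase, was 6.56 ± 0.046 in RasV12 and 7.56 ± 0.041 in CL8, a fall that kept its call after rescaling (-0.33). Vps16A, a core subunit shared by HOPS and CORVET, gave 0.14 as deposited and 0.96 after rescaling, and was not called in both.

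**Figure D4:**
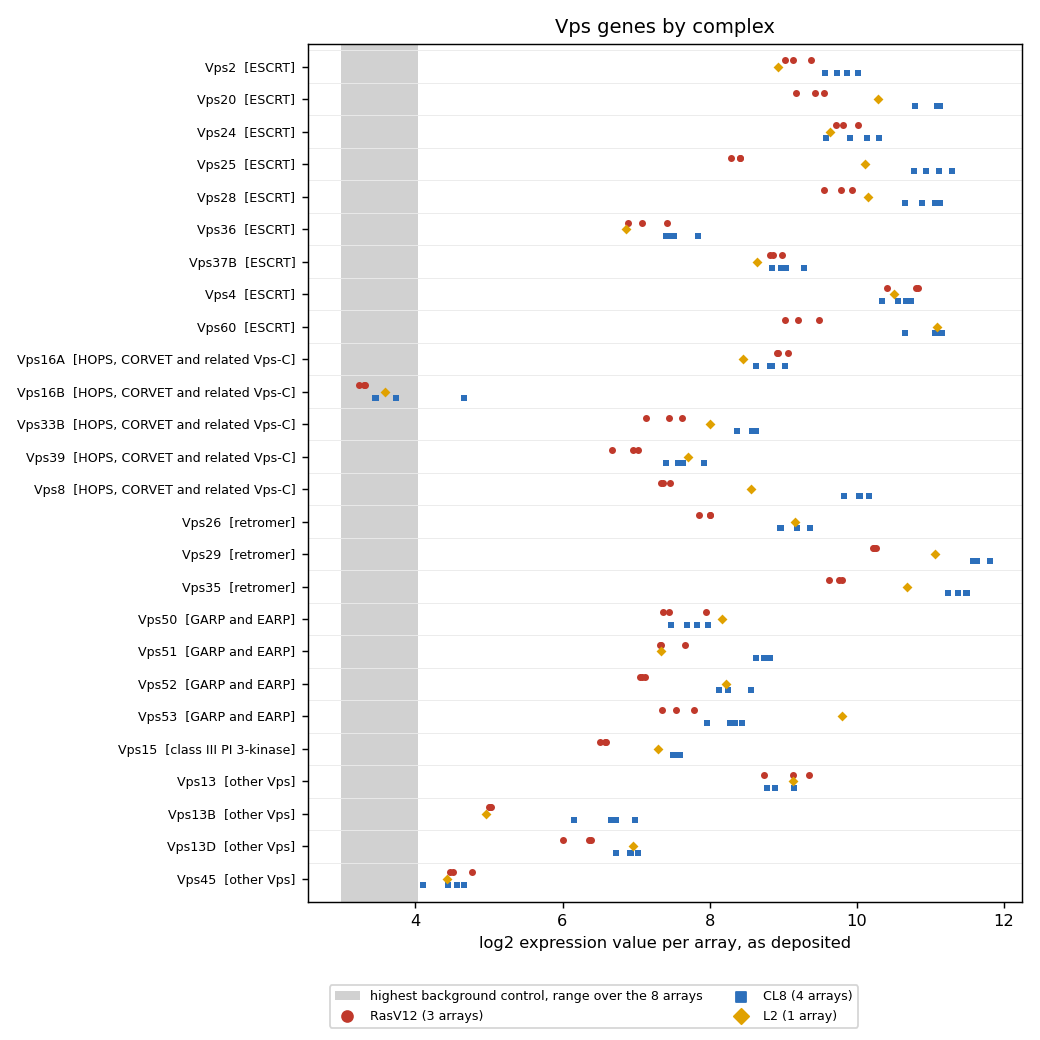
Log2 expression value, as deposited, of each Vps gene on every array, ordered by complex, with the grey band showing the range of the highest background control. The RasV12 points of Vps25 and Vps8, at 8.29 to 8.42 and 7.34 to 7.46, are separated from CL8 by more than for any other Vps gene, and the L2 point of Vps53, at 9.80, stands right of the other points of that gene.

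Of the 20 Atg genes, 1 rose and 4 fell in RasV12 against CL8 in both scalings, beside 11.3% and 25.6% of all probe sets. The single riser was the largest difference in all 4 families. Atg5 encodes the protein that is joined to Atg12 and, with Atg16, directs the lipidation of Atg8. It read 7.81, 7.94 and 8.01 in RasV12, 3.60, 3.89, 3.45 and 3.23 in CL8 and 8.64 in L2. CL8 was near background, with 3 of its 4 arrays above the highest control, and both other lines were far above it. RasV12 was 20.8-fold higher than CL8 (difference 4.38, SE 0.15, limma adjusted p = 2.99e-07, rescaled 4.74) and L2 34.2-fold higher (5.10, limma adjusted p = 3.72e-06, rescaled 5.30). RasV12 and L2 differed by -0.72 (limma adjusted p = 0.0311, rescaled -0.56), which was not called in both scalings. Atg5 was represented by a single probe set.

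The partners of Atg5 did not share its rise in RasV12. Atg16 read 6.10, 6.77 and 6.39 in RasV12, 7.78, 8.30, 7.93 and 7.94 in CL8 and 6.93 in L2, and was lower in RasV12 (difference -1.57, SE 0.18, limma adjusted p = 0.000134, rescaled -0.89). Of its 2 other probe sets, 1 was within the controls in RasV12 and at least 1.38-fold lower there than in CL8 (limma adjusted p = 0.00153), and 1 gave -0.50 as deposited and 0.11 after rescaling. In L2 against CL8 this last probe set gave 0.78 (rescaled 1.24), where the probe set used gave -1.06 (rescaled -0.60). Atg12, the ubiquitin-like partner, differed by -0.54 between RasV12 and CL8 (rescaled 0.20) and by 0.29 between L2 and CL8 (rescaled 0.87). Atg7, the activating enzyme of both conjugation reactions, was 5.03 ± 0.17 in RasV12, 6.06 ± 0.11 in CL8 and 5.38 in L2. It was lower than CL8 in RasV12 (-1.02, SE 0.11, limma adjusted p = 7.87e-05, rescaled -0.70) and in L2 (-0.68, limma adjusted p = 0.00912, rescaled -1.06). Atg3, the conjugating enzyme for Atg8, gave -0.68 between RasV12 and CL8 (rescaled 0.14) and 0.27 between L2 and CL8 (rescaled 0.93). Atg8a, the ubiquitin-like protein of the autophagosome membrane, lay between 12.56 and 12.91 on all RasV12 and CL8 arrays, with a difference of -0.046 (rescaled 0.65). Atg8b, its copy, was within the controls in all lines.

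Atg14 and Atg9 fell too, both in steps that supply and mark the membrane. Atg14, the subunit that directs the class III phosphatidylinositol 3-kinase to autophagy, read 5.36, 5.34 and 5.47 in RasV12, 7.12, 7.16, 7.25 and 7.01 in CL8 and 5.16 in L2. As deposited RasV12 and L2 were close, with RasV12 minus L2 at 0.23, but after rescaling that difference was 1.02. Both lines lay below CL8, RasV12 by -1.75 (SE 0.085, limma adjusted p = 1.4e-06, rescaled -1.25) and L2 by -1.97 (rescaled -2.27). Atg9, the transmembrane protein of the vesicles that seed autophagosomes, read 7.54, 7.44 and 7.57 in RasV12, 9.06, 9.16, 9.12 and 9.11 in CL8 and 6.92 in L2. It was 3.01-fold lower than CL8 in RasV12 (difference -1.59, SE 0.073, limma adjusted p = 1.11e-06, rescaled -0.77) and 4.55-fold lower in L2 (-2.19, limma adjusted p = 6.9e-06, rescaled -1.68).

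The initiation kinase, with 4 measured genes, had no call in both scalings. Atg1, the kinase, gave 0.06 and 0.88 after rescaling, and Atg13, its partner, -0.71 and 0.10. Atg101, another subunit, gave -0.074 on the probe set used (rescaled 0.70). Its second probe set read 2.17, 2.07 and 2.01 in RasV12, within the controls, and 5.38, 4.49, 5.33 and 5.51 in CL8 and 5.72 in L2, at least 3.59-fold lower in RasV12 than in CL8 (limma adjusted p = 1.22e-05). The 2 probe sets of this gene disagree, and which of them follows its transcripts was not tested. Atg18b, which binds phosphatidylinositol 3-phosphate, read 6.63, 6.62, 7.80 and 8.06 on the CL8 arrays, with arrays 1 and 2 apart from arrays 3 and 4. RasV12 lay at 8.05, 8.07 and 8.08 and L2 at 8.71. Across the 101 genes, CL8 arrays 1 and 2 did not overlap arrays 3 and 4 in 58, beside 65.9% of all probe sets. In 4 of the 58 the means of the pairs differed by 0.5 or more, which were Atg18b, Atg13, VhaAC45 and Atg101, and VhaM9.7-a differed by as much with overlap. Most probe sets on the array showed this split, so it is not particular to these genes. The labels name no batch among the CL8 arrays, and the fit took them as independent.

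**Figure D5:**
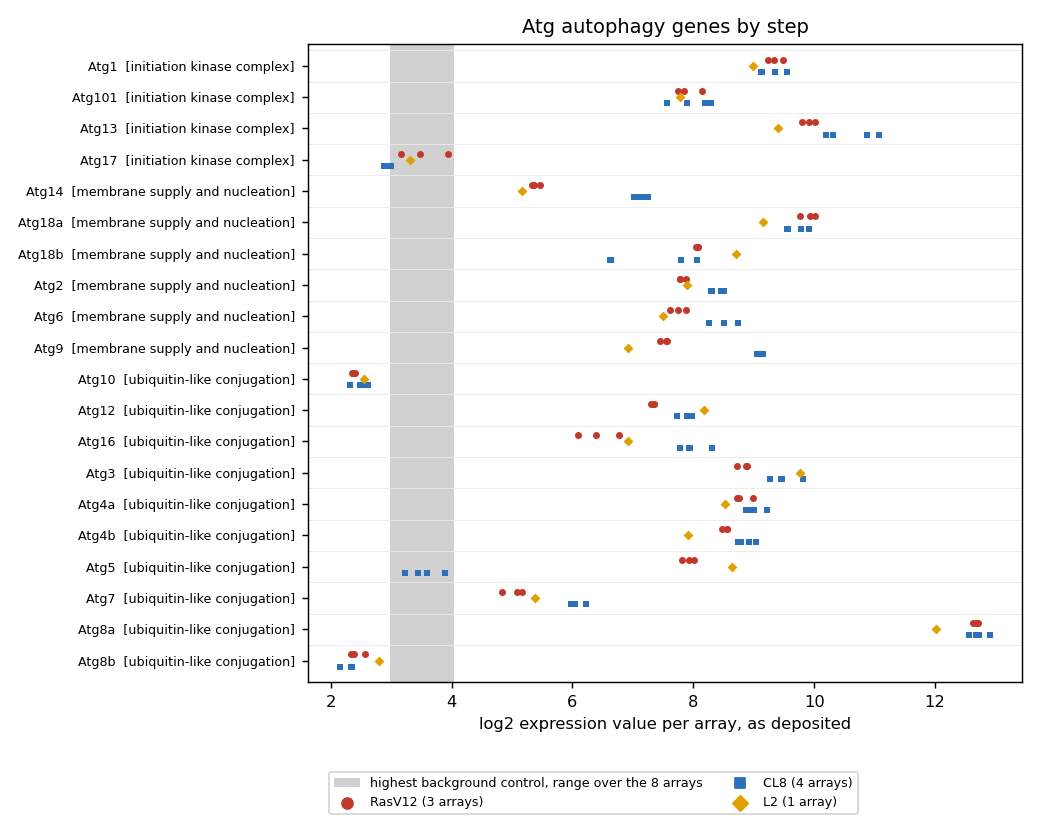
Log2 expression value, as deposited, of each Atg gene on every array, ordered by step of autophagy, with the grey band showing the range of the highest background control. Atg5 has its CL8 points in or beside the band at 3.23 to 3.89 and its RasV12 and L2 points at 7.81 to 8.64, and Atg14 and Atg9 have CL8 alone at the right.

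Set side by side, 6 of 26 Rab, 10 of 26 Vps, 11 of 29 Vha and 4 of 20 Atg genes fell in RasV12. These falls against CL8, in both scalings, stand beside 25.6% of all probe sets. Rises in both scalings numbered 3, 0, 1 and 1, beside 11.3% of all probe sets. Of the genes above the controls in RasV12 or CL8, 6 of 19, 10 of 26, 9 of 17 and 4 of 18 fell. In the same order of families, 2, 0, 0 and 1 of them rose. The shares of all such probe sets were 33.5% lower and 13.6% higher. Among genes above the controls, the medians were -0.71 for Rab, -0.88 for Vps, -1.11 for Vha and -0.44 for Atg genes as deposited, and -0.09, -0.33, -0.43 and 0.36 after rescaling. The Rab, Vps and Vha medians were thus below 0 in both of these scalings, and the sign of the Atg median turned. After centring on the 75th percentile, the medians of the same genes were 0.13, -0.04, -0.27 and 0.40, beside 0.35 over all probe sets above the controls, so that the Vps and Vha medians were below 0 in all 3 scalings. Over all measured genes, those within the controls included, the centred medians were 0.57, -0.04, 0.35 and 0.58, beside 0.76 over all probe sets tested. The differences between families were not tested.

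Between L2 and CL8, 7 members were higher in L2 and 17 lower in both scalings, beside 15.8% and 11.7% of all probe sets. As deposited the counts were 17 and 41, beside 38.3% and 23.6%, and after rescaling 14 and 23, beside 20.2% and 17.4%. Of the 7 that were higher, Vps53 and Atg5 are described above, Atg18b differed by 1.43 (rescaled 2.00), and Atg8b, Rab9Fa, Vha14-2 and VhaAC39-2 were within or at the edge of the controls. The lower genes were spread over the families, with 5 Rab, 3 Vps, 5 Vha and 4 Atg genes. Between RasV12 and L2, 12 members were higher in RasV12 and 27 lower, beside 9.53% and 25.9% of all probe sets. As deposited the counts were 13 and 38, beside 9.57% and 44.1%, and after rescaling 25 and 27, beside 22.0% and 26.0%. The L2 values come from 1 array, and these tests assume that L2 varies like the other lines. The comparisons share arrays, so their calls are not independent of each other.

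Other endolysosomal genes, taken from lists of ESCRT and sorting partners, HOPS and fusion proteins, phosphoinositide enzymes, lysosomal enzymes, endocytic coats and Rab regulators, were measured for 87 genes. In RasV12 against CL8, 32 of them were lower in both scalings and 5 higher, beside 25.6% and 11.3% of all probe sets. Most of the 87 were above the controls, and of all probe sets above them in RasV12 or CL8, 33.5% were lower and 13.6% higher. The median of the 87 was -0.81 as deposited and -0.04 after rescaling. HOPS and fusion genes had 9 of 12 lower, lysosomal enzymes and membrane proteins 9 of 22, endocytosis genes 8 of 16, Rab regulators 3 of 15, phosphoinositide and autophagy genes 2 of 11 and ESCRT partners 1 of 11. The largest falls were in Cln7, a lysosomal membrane transporter (difference -3.88, limma adjusted p = 1.14e-05, rescaled -3.09), Hexo2, a hexosaminidase (-3.68, limma adjusted p = 5.37e-07, rescaled -2.98), AP-2mu, the medium chain of the endocytic clathrin adaptor (-3.05, limma adjusted p = 3.6e-06, rescaled -2.25), aux, the auxilin that uncoats clathrin vesicles (-2.97, limma adjusted p = 2.24e-06, rescaled -2.21), and LManII, a lysosomal mannosidase (-2.56, limma adjusted p = 0.000553, rescaled -2.12). One gene, pns from the list of Rab regulators, was higher by 3.74 (limma adjusted p = 0.0008, rescaled 4.16), with a spread of 1.2 (SD, n = 4) between the CL8 arrays.

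Markers of cell types moved with the same comparison. The linear levels of 10 measured hemocyte markers, genes of blood cells, were summed. The sum was 12050 to 12930 on the RasV12 arrays, 39710 to 46800 on the CL8 arrays and 54410 in L2. Of the 10, 6 were lower and 2 higher in RasV12 than in CL8 in both scalings, beside 25.6% and 11.3% of all probe sets. All 10 were above the controls in every line, with the plasmatocyte genes Hml and NimC1 at 3.47 and 3.70 in CL8 and close to them. A linear sum is set mostly by its brightest genes, so Hml and NimC1 added little to it in CL8. The sum does not show that each marker was high. For 6 mesoderm and muscle markers the sum was 3426 to 4016 in RasV12, 74.01 to 93.87 in CL8 and 1462 in L2, with 4 called higher and 1 lower, and the mesoderm regulator twi was within the controls in CL8 (2.82). For 11 wing disc markers it was 184.1 to 256.0 in RasV12, 4873 to 5727 in CL8 and 498.3 in L2. In RasV12 against CL8, 1 of the 11 was called higher and 6 lower, with a median difference of -0.50 (rescaled -0.46). In L2 against CL8 their median was 0.24 (rescaled -0.41), so the sum does not show that each marker was lower. Of the 11, 10 were above the controls in RasV12 and 9 in L2. The Hedgehog receptor gene ptc was within the controls in RasV12 (2.68) and L2 (3.54). The part of these differences in the levels of the endolysosomal genes was not tested. In RNA of a whole culture, fewer cells of a type and less RNA per cell cannot be told apart.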

How the data were processed

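RNA of the 3 lines was labelled and hybridised to DrosGenome1 arrays with the maker's standard reagents, per the labels. The authors computed the deposited values with GCRMA, which corrects probe intensities for background by GC content, normalizes across arrays and summarises each probe set, per the series' design text. That the deposited values are log2 was inferred from their range and from what GCRMA gives, and the sources used here do not say if the arrays were processed in 1 run.

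After 44 control probe sets were removed, 13966 were tested, 12442 paired with 1 gene, 327 with several and 1197 with none in the platform's annotation. The 101 genes had 111 probe sets, 9 genes having more than 1, and 2 probe sets paired with several genes were left out. All 101 symbols matched RefSeq (assembly Release 6 plus ISO1 MT), used for names and gene order only. Probes of near-identical gene copies can take up each other's transcripts.

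One fit of all 8 arrays was made with limma (version 3.58.1, R 4.3.3; lmFit, contrasts.fit, eBayes). Adjusted p-values are Benjamini-Hochberg values over the 13966 probe sets, called below 0.05. The spread is estimated from RasV12 and CL8, since L2 has a single array. The number of arrays limits precision, with a median standard error of 0.114 for RasV12 against CL8, 0.167 for L2 against CL8 and 0.172 for RasV12 against L2. Rescaling moved the median difference over all probe sets from -0.078 to 0.055, from 0.271 to 0.013 and from -0.395 to -0.017 in the same order. For RasV12 against CL8 the move was larger over probe sets above the controls in either line, from -0.49 to -0.02. Single bright genes moved further, as Vha13 did from -1.76 to -1.03. Paralog contrasts were tested with an exact permutation test (SciPy 1.17.1, Python 3.11.15). The scripts were tested on simulated data.

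A fold against a line within the controls is a lower bound, written as at least: each array of the dim line enters with its highest control, or with the gene's value where that is higher. The members and lists were chosen with earlier results of these data known. The rule for named genes took all copies of V-ATPase subunits with 2 or more measured genes. Per family it took the 6 genes that differed most between RasV12 and CL8 among those called in both scalings without overlap of the arrays, the 2 with the largest difference between L2 and CL8 and the 1 between RasV12 and L2. It took 6 of the other endolysosomal genes in the same way. Further members were named after their values were seen, to complete a complex or a count.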

Additional observations from a re-analysis of the deposited data

Results flagged for a closer look

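Among 50 named genes tested for a single CL8 array far from the other 3, 5 stood out, all on CL8 array 1. In each, the gap of that array to its nearest neighbour took up more than 0.829 of the range of the 4 arrays (Dixon's criterion), which chance alone gives in about 1 of 20 genes. Rab23 was at 3.27 on that array and at 3.96 to 4.03 on the others, and Vps20 was at 10.80 against 11.09 to 11.14. The remaining cases were at or below the background controls: VhaAC39-2 with 3.05 against 3.30 to 3.35, Vha16-5 with 2.59 against 2.43 to 2.45, and VhaPPA1-2 with 0.81 against 0.90 to 0.92. Without CL8 array 1, Rab23 and Vps20 kept their direction and their call between RasV12 and CL8.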

How the results depend on the processing

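After quantile normalization, RasV12 against CL8 had 34 higher and 33 lower members (6 and 57 as deposited), L2 against CL8 had 23 lower (41) and RasV12 against L2 had 25 higher (13). The medians of Rab, Vps, Vha and Atg genes became 0.062, -0.33, -0.094 and 0.22, the VhaAC39 contrast -0.79, and VhaM9.7-c reversed to 0.53. Centred on the 75th percentile, the counts were 52 higher and 25 lower for RasV12 against CL8 and 47 higher and 12 lower for L2 against CL8. The medians were then 0.57, -0.037, 0.35 and 0.58, and Vha100-5 (0.38), Vha16-1 (0.058), Vha16-4 (0.58), Vha16-5 (0.78) and VhaM9.7-c (0.61) reversed. With probe sets within the controls removed, 9 members were higher in L2 than in CL8 (17), and the medians of Rab, Vha and Atg genes were -0.58, -1.11 and -0.44, a change that follows from fewer genes being tested. The mean of all probe sets of a gene gave medians of -0.18 for Rab and -0.44 for Atg genes. Asking for a log2 difference of at least 1 in addition left 2 higher and 33 lower for RasV12 against CL8, 4 and 16 for L2 against CL8 and 5 and 11 for RasV12 against L2. With the sample numbers as a replicate block, L2 against CL8 had 6 higher and 26 lower and RasV12 against L2 had 6 and 24. Same-numbered RasV12 and CL8 arrays correlated at -0.24, -0.10 and -0.09 in their deviations from the line means, so the numbers were not taken as pairing samples. The cause of the scaling and block changes was not tested. Leaving out 1 array at a time gave 3 to 5 members higher in both scalings, with 3 without CL8 array 3, and 30 to 33 lower (these repeats were chosen after seeing the data). No replicate of L2 could be left out. The 58 named differences, each repeated in the settings that applied to it, gave 964 results. Of these results, 926 kept direction and side of the threshold, 21 lost and 11 gained a call and 6 reversed as listed. Signal over background limits what can be said of the V-ATPase copies within the controls.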
